A study of Mus musculus with 3 samples.

Results

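*Osr1* and *Osr2* are the mouse odd-skipped related genes, and they were chosen by symbol as 2 of the 32285 genes counted in these libraries. Each symbol matched 1 row, and *Osr1* was matched by its gene identifier as well, since the same name was once used for a kinase gene. Only *Osr2* is the locus that drives Cre in this study: *Osr1* is its paralog on another chromosome. The cells came from the soft palate, the posterior part of the palatal region, of C57BL/6 embryos at E14.5, and were profiled by droplet-based single-cell RNA sequencing that reads the 3′ ends of transcripts. The 2 control libraries were labelled only as control, and the study's methods describe controls as littermates with floxed *Tgfbr1* alleles and no *Osr2-Cre*. The 1 mutant library was *Osr2-Cre;Alk5*fl/fl, in which Cre made from the *Osr2* locus deletes *Alk5* (*Tgfbr1*), the type I receptor of TGF-β, wherever that locus is or has been active. Embryos were used regardless of sex. No label says whether the control libraries came from separate embryos, so the spread between these libraries may be technical. P-values of mutant against control below measure only that spread. Those of contrasts between cells of the same library were fitted with library as a block. They measure how evenly a contrast repeats over these libraries.

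Osr1 and Osr2 are closely related zinc finger transcription factors. *Osr2* is known for its part in the outgrowth of the palatal shelves, where it is expressed in mesenchyme, and mice that lack it have cleft palate. *Osr1* is known from the early kidney, heart and limb, where it also marks connective tissue fibroblasts. A Cre inserted at *Osr2* leaves a permanent change in the floxed gene, whereas an *Osr2* transcript in a cell shows only that the RNA was present when the cell was lysed. No row for Cre was among the genes counted. Reads from the 3′ end do not show whether a *Tgfbr1* transcript carried the floxed part, so the level of *Tgfbr1* does not check the genotype label.

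*Osr2* (ENSMUSG00000022330) spans chr15:35296098-35303305 on the plus strand of GRCm38, and no annotated gene overlaps it. *Osr1* (ENSMUSG00000048387) spans chr12:9570116-9581500 on the plus strand, and its first 470 bases lie over *1700022H16Rik*, a non-coding RNA gene on the opposite strand. Whether the counting used strand is not given in the sources used here. Because the genes are paralogs, the annotated transcripts (2 of *Osr1* and 5 of *Osr2*) were searched for sequence that reads could not tell apart. The longest run of identical bases was 23 bases long and occurred once in the coding part of each gene. It is printed because it is the most that the genes share, in capitals because every base is common to both:
Osr1, exon 2 of 3, chr12:9579735-9579757, plus strand: TACACCTGTGACATCTGCCACAA
Osr2, exon 2 of 4, chr15:35300897-35300919, plus strand: TACACCTGTGACATCTGCCACAA
This run ended 1047 bases from the 3′ end of transcript Osr1-201 and 623 bases from the 3′ end of Osr2-201, away from the ends where these libraries were read.

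The libraries held 22624711 and 27814907 unique molecular identifiers (UMIs) in control 1 and control 2 and 63505144 in the mutant. After the filters on genes and mitochondrial UMIs, 2117, 3821 and 8111 cells remained, and between 18 and 49 cell barcodes were shared by any pair of libraries. No cell type annotation was used here, so cells were gated by marker genes that include neither *Osr1* nor *Osr2*. Palatal mesenchymal cells, which had UMIs of at least 2 of 6 markers (*Runx2*, *Twist1*, *Twist2*, *Pdgfra*, *Msx1* and *Prrx1*), numbered 1229, 2004 and 3647. Cells with exactly 2 of these markers made up 31.9%, 44.6% and 45.4% of them. The mutant library had the most mesenchymal cells, but it has no replicate. These cells held 2705 *Osr2* UMIs in the mutant, against 2770 and 4181 in the controls, so its relative counting error for *Osr2* was not the smallest. Levels are given as CPM, the UMIs of a gene summed over a gate in a library and scaled by the UMIs of all genes there to the usual common total, with exact 95% Poisson intervals that cover counting error only. *Osr1* and *Osr2* levels are not compared with each other, because CPM is not corrected for length.

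*Osr2* was counted mostly in the mesenchymal gate in every library. In palatal mesenchymal cells its level was 245 CPM (236 to 254) in control 1, 322 CPM (313 to 332) in control 2 and 102 CPM (98.3 to 106) in the mutant. These cells held 74.0%, 67.5% and 54.7% of all *Osr2* UMIs of their libraries, and a further 7.67%, 16.2% and 17.1% lay in cells that met no gate. In myogenic cells, gated by *Myod1*, *Myog*, *Pax7* and other muscle genes, *Osr2* was at 20.5 CPM (13.4 to 30.0), 12.1 CPM (6.60 to 20.2) and 5.91 CPM (1.92 to 13.8). In epithelial cells it was at 48.4 CPM (39.9 to 58.2), 85.5 CPM (73.9 to 98.5) and 28.2 CPM (22.2 to 35.5). Within each library the mesenchymal interval lay above the epithelial interval, which lay above the myogenic one.

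In 1 fit over all gates with library as a block, 17353 genes were tested by edgeR's quasi-likelihood test with Benjamini-Hochberg adjustment. *Osr2* was higher in mesenchymal than in myogenic cells by 4.06 on the log2 scale (SE 0.26, adjusted p = 2.0e-24), in a contrast that called 29.3% of genes higher in mesenchyme and 8.51% lower. Against epithelial cells the difference was 2.02 (SE 0.19, adjusted p = 1.4e-15), with 14.8% of genes called in this direction and 16.9% in the other. Against endothelial cells, which came from control 2 and the mutant, it was 4.01 (SE 0.31, adjusted p = 6.2e-20), with 17.8% called higher and 14.1% lower. Against myeloid cells it was 3.03 (SE 0.25, adjusted p = 1.0e-18), with 29.4% called higher and 14.4% lower. Against glial cells, which came from control 2 and the mutant, it was 2.71 (SE 0.40, adjusted p = 8.3e-08), with 3.13% called higher and 4.47% lower. *Tgfbr1* was less divided by type: it was not called against epithelial (0.24, SE 0.16) or myogenic cells (0.22, SE 0.18), and was higher than in endothelial cells by 0.74 (SE 0.22, adjusted p = 0.0062) and lower than in myeloid cells by −0.70 (SE 0.18, adjusted p = 5.9e-04). The gates of 1 library share that library, so they are not independent samples.

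The gates closest to the palatal mesenchyme were mural cells, which surround vessels, and cartilage cells. In mural cells *Osr2* was at 207 CPM (160 to 262) in control 1 and at 70.0 CPM (53.4 to 90.1) in the mutant, while control 2 had only 9 such cells. The difference between mesenchymal and mural cells, 0.48 (SE 0.24), did not pass the test (edgeR adjusted p = 0.76), in a contrast that called 0.0692% of genes higher in mesenchyme. In cartilage cells *Osr2* was at 77.7 CPM, 159 CPM and 67.3 CPM, below mesenchymal cells by 0.93 (SE 0.20, edgeR adjusted p = 0.0027), in a contrast that called 0.225% of genes in this direction. The 6 mesenchymal markers summed to 936 to 1031 CPM in mesenchymal cells, 851 and 872 CPM in mural cells and 940 to 1028 CPM in cartilage cells, so these gates were also mesenchymal by that list.

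In gates outside the mesenchyme the same 6 markers summed to 80.1 to 165 CPM in epithelial cells and 52.6 to 61.5 CPM in myogenic cells, although cells with 3 or more of them had been kept out of both gates. Free RNA and doublets can bring mesenchymal transcripts into such cells, and their part in the epithelial *Osr2* level was not tested. After each cell with at least 2000 UMIs was thinned to that depth, and shallower cells were left out, 10.8%, 10.7% and 4.62% of epithelial cells had an *Osr2* UMI. The shares were 1.28%, 2.44% and 0.943% of myogenic cells, and 2.35% and 0.437% of endothelial cells in control 2 and the mutant. Neuronal cells, found in number only in the mutant (313 cells), held *Osr2* at 8.79 CPM (5.51 to 13.3). The 28 glial cells of control 2 held no *Osr2* UMI. For a count of 0 a fixed limit of 3 UMIs was used, here 20.5 CPM, which is not the exact interval. The 125 glial cells of the mutant were at 31.9 CPM (17.4 to 53.5).

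**Figure D1:**
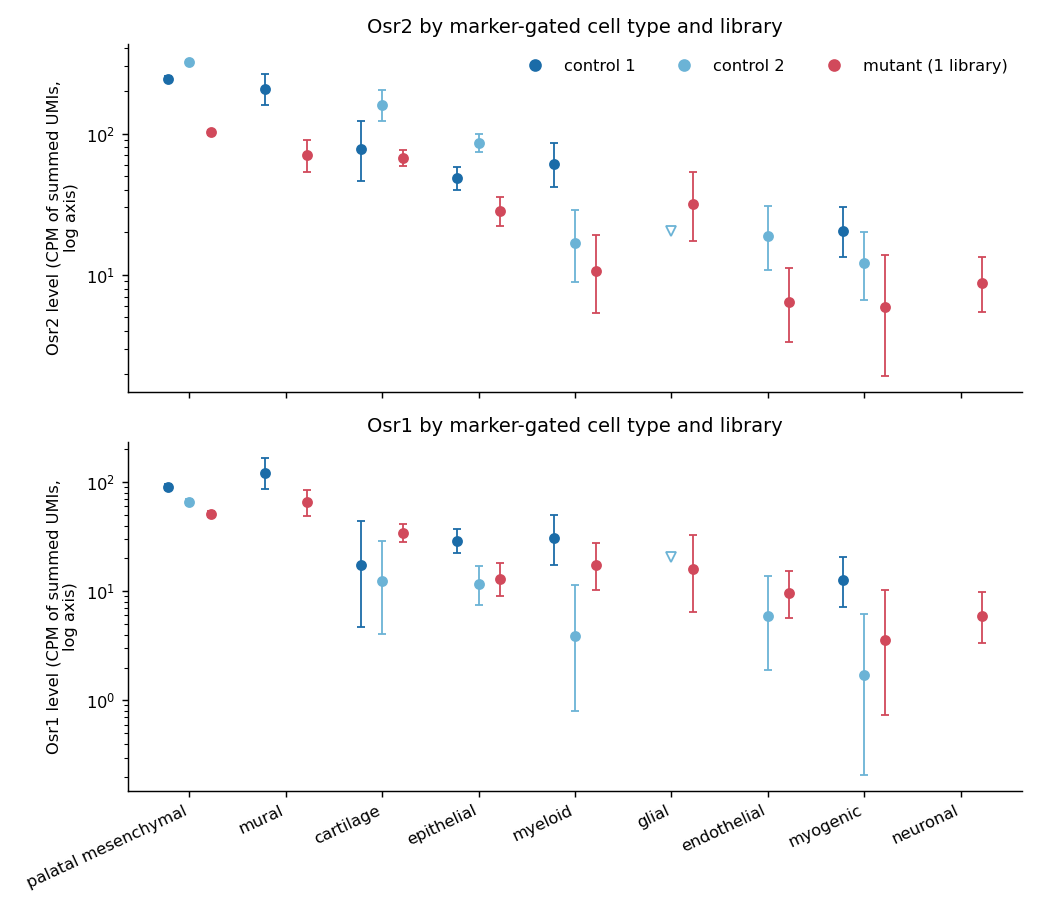
Level of *Osr2* (top) and *Osr1* (bottom) in each marker gate with at least 20 cells, as CPM of summed UMIs on a log axis. Points are libraries, bars are exact 95% Poisson intervals, and open triangles mark a fixed limit of 3 UMIs, used where the count was 0. Palatal mesenchymal cells sat at 245, 322 and 102 CPM for *Osr2*, and myogenic cells at 20.5, 12.1 and 5.91 CPM.

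Among the gated types *Osr1* had a similar distribution. Cells that met no gate held 15.2%, 25.4% and 23.0% of all *Osr1* UMIs of their libraries. In control 1 these ungated cells held *Osr1* at 133 CPM (117 to 151), above the mesenchymal interval. Their *Osr2* level in control 1, 162 CPM (144 to 182), lay below that of mesenchymal cells. In palatal mesenchymal cells *Osr1* was at 91.0 CPM (85.5 to 96.7) in control 1, 66.1 CPM (61.7 to 70.7) in control 2 and 51.1 CPM (48.4 to 53.9) in the mutant. It was higher in mesenchymal than in epithelial cells by 2.03 on the log2 scale (SE 0.22, edgeR adjusted p = 3.0e-13) and than in myogenic cells by 3.55 (SE 0.31, adjusted p = 5.7e-17). Between mesenchymal and mural cells the difference was −0.17 (SE 0.26, edgeR adjusted p = 0.95), and mural cells were at 122 CPM (86.8 to 165) in control 1 and 65.3 CPM (49.3 to 84.8) in the mutant. In cartilage cells *Osr1* was at 17.3 CPM, 12.4 CPM and 34.1 CPM, so that the mutant alone was the highest there, but the controls rested on 4 and 5 UMIs and the contrast between genotypes did not pass the test (edgeR adjusted p = 1.0).

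The comparison of mutant with control asks how the driver locus itself was read out where its Cre had been used. *Tgfbr1*, the deleted gene, was at 56.2 CPM (51.9 to 60.7) and 62.8 CPM (58.5 to 67.2) in the mesenchymal cells of the controls and 48.0 CPM (45.4 to 50.7) in the mutant. That is a difference of −0.31 on the log2 scale (SE 0.35), which did not pass edgeR's quasi-likelihood test (adjusted p = 1.0). *Osr2* was lower in the mutant by 1.47 on the log2 scale (SE 0.37, adjusted p = 0.0080), or 2.75-fold below the mean of the controls on the log scale. Among the 16062 genes tested, 1.02% were called lower and 0.423% higher. The mutant lay below both controls, and its distance from their mean, −1.46, was larger than the gap of 0.40 between them. A distance larger than that gap was found for 31.5% of all genes in the lower direction and 11.1% in the higher. *Osr1* in the mutant was also below both controls, by −0.60 against a gap of 0.46, and its fitted difference of −0.62 (SE 0.35) did not pass the test (adjusted p = 0.87). *Tgfbr1* in the mutant lay below both controls too, by −0.31 against a gap of 0.16.

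The fit has 1 residual degree of freedom: its spread comes from the 2 controls, and the single mutant library is assumed to vary like them. edgeR draws the spread of each gene toward a trend over all genes, so the p-value for *Osr2* does not rest on its own control gap alone. The median of all genes was −0.13 with library totals as the scale, and about 0 with TMM factors (−0.010) or DESeq2's size factors (−0.0063). The difference in *Osr2* was −1.35 with TMM factors (edgeR adjusted p = 0.095) and −1.34 with DESeq2 (adjusted p = 0.017). The call was also lost with at least 3 mesenchymal markers required (−1.47, edgeR adjusted p = 0.17), with at least 1 marker (−1.41, adjusted p = 0.25) and outside the osteogenic gate (−1.40, adjusted p = 0.051), an alternative chosen after seeing the data. Without control 1 the difference was −1.66 and without control 2 it was −1.26, values that leave 1 library a group and so no test. The Cre allele at *Osr2*, the loss of *Tgfbr1* and the library cannot be told apart as sources of the lower *Osr2* count.

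The fall was seen per cell. After thinning to 2000 UMIs, 31.7% of mesenchymal cells (29.1 to 34.4, exact binomial 95% interval) in control 1 and 44.6% (42.4 to 46.9) in control 2 held an *Osr2* UMI, against 17.0% (15.8 to 18.3) in the mutant. Cells below this depth were left out, so 1223, 1920 and 3542 mesenchymal cells remained. The intervals of these shares treat cells as independent and do not cover differences between libraries. Without thinning these shares were 66.8%, 71.4% and 40.4%, at median depths of 8069, 5411 and 5845 UMIs a cell. In myogenic cells, which serve as the background, the unthinned shares were 17.9%, 8.06% and 3.77% at median depths of 16334, 8431 and 7326 UMIs. Thinned mesenchymal cells with *Osr2* held on average 1.46, 1.58 and 1.25 UMIs of it. Cells with 3 or more *Osr2* UMIs were 3.27% and 6.30% of control cells and 0.762% of mutant cells. For *Osr1* the thinned shares were 14.6% (12.7 to 16.7), 10.1% and 9.97%, so that the mutant was within the interval of control 2 and below control 1. At 4000 UMIs, where 1192, 1519 and 2677 cells were deep enough, they were 27.0%, 18.9% (17.0 to 21.0) and 14.49% (13.2 to 15.9). The mutant was then below both controls, among fewer cells.

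**Figure D2:**
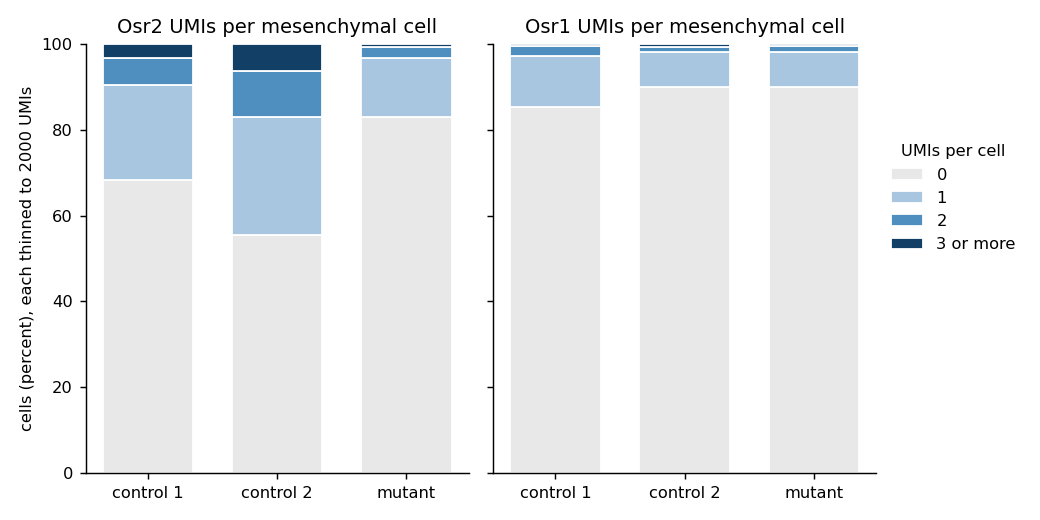
Share of palatal mesenchymal cells (percent) with 0, 1, 2 or 3 and more UMIs of *Osr2* (left) and *Osr1* (right) in each library, after thinning every cell of at least 2000 UMIs to that depth. Cells with no *Osr2* UMI made up 68.3% and 55.4% of the control libraries and 83.0% of the mutant, while those with no *Osr1* UMI were 85.4%, 89.9% and 90.0%.

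Groups with at least 20 cells in each library allowed the same comparison in 10 sets of cells: 5 cell types, the palatal mesenchyme among them, and 5 gates that are overlapping subsets of that mesenchyme. The mutant level of *Osr2* lay below both controls in 10 of the 10 groups and its interval lay wholly below theirs in 7. Over all genes tested in the mesenchyme, 1.36% lay below both controls in each of these groups and 0.486% had intervals below theirs in 7 or more. A gene without UMIs in a control cannot lie below it, and these shares were not restricted to genes at the level of *Osr2*. In cartilage and myeloid cells the *Osr2* distance was smaller than the gap between the controls. For *Osr1* the counts were 4 and 2, and for *Tgfbr1* 7 and 1. The share of all genes that reach these lower counts was not computed, so they are given as a description only. In the groups other than the whole mesenchyme the differences in *Osr2* did not pass edgeR's test, which called from 0.0942% (cartilage) to 0.624% (perimysial gate) of genes lower and from 0.00766% (epithelial) to 0.298% (perimysial gate) higher. They were −1.32 in the perimysial gate (adjusted p = 0.061), −1.32 in the midline gate (adjusted p = 0.050, unrounded above 0.05), −1.38 in dividing cells (adjusted p = 0.091), −1.30 in the tendon gate (adjusted p = 0.17) and −0.83 in the osteogenic gate (adjusted p = 0.92). In epithelial cells the difference was −1.24 (adjusted p = 0.33), and in myogenic cells −1.46 (adjusted p = 0.55), where the mutant count was 5 UMIs. Summed over all cells kept, *Osr2* differed by −1.33 (adjusted p = 0.13), with 0.0926% of genes called lower and 0.528% higher.

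The libraries differed in other ways inside the mesenchymal gate. Cells of the osteogenic gate were 12.2% and 3.24% of control mesenchymal cells and 15.0% of mutant ones, and cells of the midline gate were 35.6%, 42.5% and 25.4%. The 8 myeloid markers summed to 49.7 and 23.4 CPM in control mesenchymal cells and 6.80 CPM in the mutant. The 8 myogenic markers summed to 38.0, 12.9 and 5.66 CPM, and no marker of either list was at 0 in any library. Epithelial markers summed to 57.3, 38.9 and 17.3 CPM, and cartilage markers to 70.3, 72.3 and 109 CPM. The part of these differences in the *Osr2* result was not tested, apart from the alternative that left out the osteogenic gate.

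Within the palatal mesenchyme, *Osr2* and *Osr1* were highest in different gates. Each gate took mesenchymal cells with at least 2 markers of a short list, and was compared with all other mesenchymal cells of the same library, in 3 libraries and 16062 genes. Cells inside each gate were deeper than those outside in each library. In the tendon gate the medians were 13063, 9136 and 12226 UMIs, against 8022, 5361 and 5644 outside. The part of depth in the gate contrasts was not tested. Among gates with at least 20 cells in each library, *Osr2* was highest in the midline gate (*Lsp1*, *Wnt16*, *Sostdc1*), which marks mesenchyme near the fusing midline. There it was at 334 CPM (318 to 351), 356 CPM (342 to 370) and 138 CPM (131 to 146), against 184, 287 and 82.6 CPM outside. The fitted difference was 0.63 (SE 0.075, edgeR adjusted p = 2.7e-07), in a contrast that called 2.51% of genes higher and 1.18% lower. *Osr1* was not called in the midline gate (−0.07, SE 0.10, edgeR adjusted p = 0.82), and went from −0.32 without the mutant (adjusted p = 0.041) to 0.15 without control 2 (adjusted p = 0.43).

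*Osr1* was highest in the perimysial gate (*Hic1*, *Ebf2*, *Agtr2*, *Foxd1*), which marks the fibroblasts around muscle. Its level there was 139 CPM (128 to 151), 90.2 CPM (80.9 to 100.2) and 77.6 CPM (71.2 to 84.5), against 60.8, 55.9 and 41.8 CPM in the other mesenchymal cells. The fitted difference was 0.93 (SE 0.096, edgeR adjusted p = 1.1e-08), with 9.44% of genes called higher and 1.84% lower. *Osr2* in the perimysial gate was at 283, 261 and 109 CPM, against 221, 348 and 99.8 CPM outside, so control 2 went the other way from the other libraries. The fitted difference in *Osr2* was 0.02 (SE 0.091, edgeR adjusted p = 0.93), and its sign changed with TMM factors (−0.094), with DESeq2 (−0.098) and without control 1 (−0.15) or the mutant (−0.033).

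Both genes were lowest in the osteogenic gate (*Sp7*, *Ibsp*, *Ifitm5*, *Alpl*), the cells that form bone. *Osr2* was at 100.4 CPM (86.9 to 115), 112 CPM (89.8 to 137) and 59.4 CPM (53.6 to 65.6) there, below other mesenchymal cells by −1.30 (SE 0.096, edgeR adjusted p = 1.6e-39). *Osr1* was at 36.5, 18.6 and 22.2 CPM, a difference of −1.52 (SE 0.13, edgeR adjusted p = 4.0e-29), in a contrast that called 9.17% of genes lower and 5.57% higher. *Osr2* was called lower in the tendon gate (*Scx*, *Mkx*, *Tnmd*) by −0.28 (SE 0.092, edgeR adjusted p = 0.036, 1.4% of genes called lower and 5.73% higher), a call lost without control 2 (−0.21) or without the mutant (−0.36). *Osr1* was called lower in dividing cells by −0.17 (SE 0.062, edgeR adjusted p = 0.037, 6.59% called lower and 14.4% higher), a call lost without control 2 (−0.14) or the mutant (−0.18). Neither gene was called in the progenitor gate (*Tfap2b*, *Eya4*), where control 1 had only 5 cells and 3.45% of genes were called lower and 12.3% higher in the other libraries. *Tgfbr1* was spread in another way: it was called higher in the tendon gate by 0.63 (SE 0.13), in the progenitor gate by 0.58 (SE 0.13) and in dividing cells by 0.32 (SE 0.067), and was not called in the osteogenic gate (−0.07, SE 0.12).

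**Figure D3:**
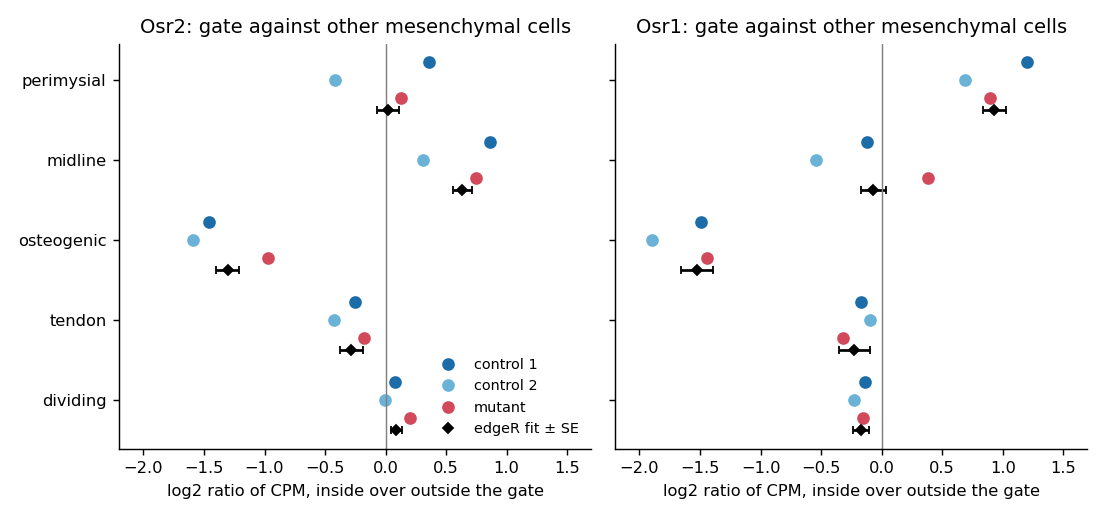
Log2 ratio of CPM inside over outside each mesenchymal gate for *Osr2* (left) and *Osr1* (right). Coloured points are libraries, black diamonds the edgeR fit with library as a block, and bars 1 SE. *Osr2* was above 0 in the midline gate in all libraries and *Osr1* in the perimysial gate, and both were below 0 in the osteogenic gate.

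The gate contrasts were also compared between genotypes, a set of tests added after the levels had been seen. Of 10 such differences (both genes, 5 gates), *Osr1* in the midline gate passed. Its log2 ratio of inside to outside was −0.12 and −0.54 in the controls and 0.39 in the mutant, a difference of 0.71 (SE 0.16, edgeR adjusted p = 0.010). The test called 0.131% of genes in this direction. Cells of the midline gate that were not in the perimysial gate held *Osr1* at 61.0, 43.0 and 56.5 CPM, and cells in neither gate at 60.6, 67.9 and 36.0 CPM. The mutant thus lay between the controls inside the midline gate and below both of them among cells of neither gate. Cells of the midline gate that also met the perimysial gate were 39.5%, 23.5% and 25.5% of it, and held *Osr1* at 117, 75.4 and 65.7 CPM. For *Osr2* in the osteogenic gate the ratio was −1.46 and −1.59 in the controls and −0.97 in the mutant, a difference of 0.55 (SE 0.19) that did not pass the test (edgeR adjusted p = 0.39).

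The overlap of *Osr2* with *Osr1* and with *Tgfbr1* was examined by dividing the mesenchymal cells of each library into those with an *Osr2* UMI and the others. There were 821, 1430 and 1475 cells with *Osr2* and 408, 574 and 2172 without. Cells with *Osr2* were deeper, with medians of 8465, 5790 and 7029 UMIs against 7318, 4563 and 5086. *Osr1* was at 99.3, 67.4 and 56.4 CPM in cells with *Osr2* and 71.4, 61.5 and 45.6 CPM in the others. The difference was 0.31 (SE 0.082, edgeR adjusted p = 0.0032), higher in 3 of 3 libraries. *Tgfbr1* was at 59.7, 65.7 and 53.2 CPM in cells with *Osr2* and 48.1, 53.1 and 42.7 CPM in the others, a difference of 0.31 (SE 0.087, edgeR adjusted p = 0.0071), also in 3 of 3 libraries. For *Osr1* and for *Tgfbr1*, 79.9% of all genes had a lower difference. The share of all genes higher in 3 of 3 libraries was not computed.

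Over all 16061 genes the median difference was 0.090, and 6.76% of genes were called higher and 2.88% lower in cells with *Osr2*, 1549 genes in all against 930 without control 1 and 535 without the mutant. With TMM factors *Tgfbr1* was no longer called (0.25, edgeR adjusted p = 0.051). With DESeq2 *Osr1* (0.24, adjusted p = 0.27) and *Tgfbr1* (0.24, adjusted p = 0.29) were both lost. Without control 1 *Osr1* (0.23, edgeR adjusted p = 0.18) and *Tgfbr1* (0.31, adjusted p = 0.052) were lost, and without the mutant *Tgfbr1* was lost (0.31, adjusted p = 0.099).

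The relation of *Tgfbr1* to *Osr2* was compared between genotypes. The difference between mutant and control in the *Tgfbr1* contrast was 0.010 (SE 0.17, edgeR adjusted p = 1), and that in the *Osr1* contrast −0.012 (SE 0.16, adjusted p = 1), in tests that called 0.149% of genes higher and 0.0623% lower. The standard errors set the size below which a difference could not have been seen. These reads do not show whether a *Tgfbr1* transcript carried the floxed part, and *Osr2* RNA does not record past Cre activity. The comparison therefore could not show whether *Tgfbr1* was deleted.

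The same question asked cell by cell, at 2000 UMIs a cell, gave small differences. *Osr1* was found in 17.0% (13.4 to 21.1) of cells with *Osr2* and 13.5% of the others in control 1. The shares were 10.5% and 9.69% in control 2 and 11.9% and 9.56% in the mutant, and the intervals overlapped in each library. *Tgfbr1* was found in 11.9% and 10.4%, in 12.6% and 10.8% and, in the mutant, in 8.13% and 8.51% of cells with and without *Osr2*. These relations differed between depths, and so did the cells counted. The random draw of UMIs was not repeated, so the spread between draws is not known. At 4000 UMIs, 1192, 1519 and 2677 cells were deep enough, against 1223, 1920 and 3542 at 2000 UMIs. At 4000 UMIs a cell, *Osr1* was found in 18.2% (15.6 to 21.1) and 12.9% (11.4 to 14.47) of mutant cells with and without *Osr2*. *Tgfbr1* was found in 22.0% (19.4 to 24.7) and 15.7% (12.8 to 19.0) of such control 2 cells, and neither pair of intervals overlapped. In the other comparisons at this depth they overlapped, and the share of all genes with such intervals apart was not computed. The intervals cover only the sampling of cells within a library, and cells are not replicates. *Tgfbr1* in the mutant was in 16.8% and 14.52% of cells at 4000 UMIs, and in 32.2% and 20.7% without thinning. The order seen at 2000 UMIs was thus turned, but the intervals overlapped at both thinned depths. Cells with UMIs of both *Osr1* and *Osr2* were 5.40%, 4.69% and 2.03% of mesenchymal cells at 2000 UMIs. Without thinning they were 29.4%, 18.8% and 12.8%, so this share depends on depth. With 1 or 2 UMIs in most positive cells, a cell without a UMI cannot be read as a cell without the transcript.

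**Figure D4:**
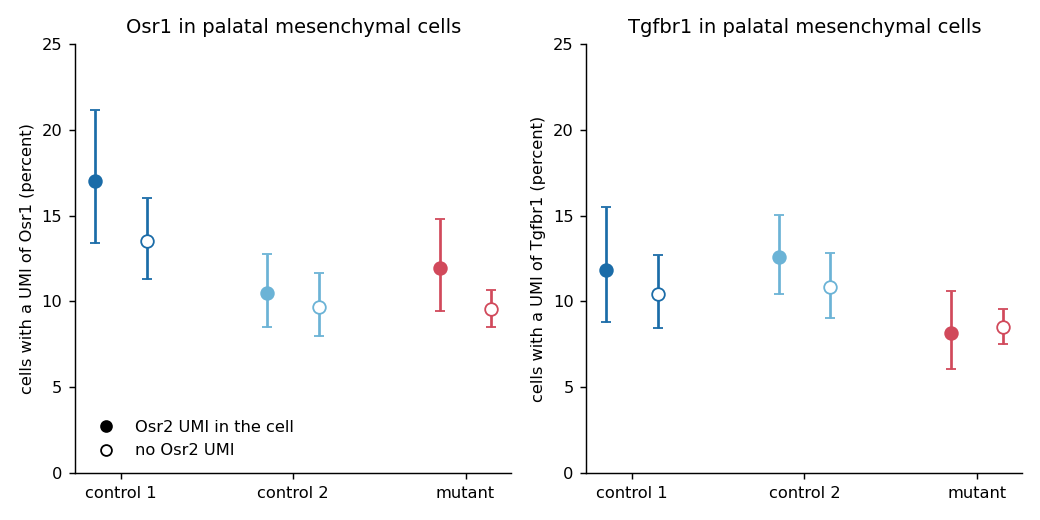
Share of palatal mesenchymal cells (percent) with a UMI of *Osr1* (left) or *Tgfbr1* (right) among cells with an *Osr2* UMI (filled) and without one (open), each cell thinned to 2000 UMIs and shallower cells left out. Bars are exact 95% binomial intervals, which cover only the sampling of cells within a library and overlap within each library at this depth. For *Tgfbr1* the mutant shares were 8.13% and 8.51%, an order that turned at 4000 UMIs (16.8% and 14.52%), with overlapping intervals at both depths.

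Other genes differed more between cells with and without *Osr2*. The largest rises among genes called, with at least 100 UMIs and the same sign in each library, included *Tfap2a*, *Sall3*, *Ryr3*, *B230334C09Rik*, *Grk5*, *Kank4*, *Col7a1*, *Tmem132c* and *Prdm6*. *Sall3*, a zinc finger gene, was at 11.6, 27.0 and 20.8 CPM in cells with *Osr2* and 2.65, 9.47 and 6.80 CPM in the others (1.65, SE 0.16, edgeR adjusted p = 7.9e-22). *Tmem132c*, which encodes a membrane protein, was at 30.7, 43.2 and 22.5 CPM against 13.0, 21.0 and 7.87 CPM (1.29, SE 0.13, edgeR adjusted p = 8.7e-21). *Tfap2a*, the gene of AP-2α, was at 8.09 and 5.50 CPM against 0.885 and 1.35 CPM in the controls, but at 0.746 and 0.535 CPM in the mutant. The rule left 1003 genes higher and 401 lower.

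Among the 10 largest falls, *Ibsp*, bone sialoprotein, was at 41.1, 12.7 and 82.5 CPM in cells with *Osr2* and at 182, 102 and 323 CPM in the others (−2.24, SE 0.076, edgeR adjusted p = 7.9e-178). *Smpd3*, a sphingomyelinase needed for mineralisation, was at 43.9, 25.4 and 62.7 CPM against 132, 87.6 and 203 CPM (−1.69, SE 0.077, edgeR adjusted p = 3.0e-99). *Ifitm5*, an osteoblast membrane protein gene, fell by 1.82 on the log2 scale, *Ihh*, the hedgehog ligand of growing bone, by 1.57, and *Panx3*, a channel gene of osteoblasts and chondrocytes, by 1.57. *Slc13a5*, *Car3*, *Ndufa4l2*, *Cgref1* and *Sgms2* made up the rest, with differences from −2.03 to −1.42. *Ibsp* and *Ifitm5* are markers of the osteogenic gate and *Ndufa4l2* of the mural gate, so their values here partly restate the gate contrasts above.

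A list of 25 genes of the palatal shelf, among them regulators known to act with *Osr2*, was followed in both contrasts. In cells with *Osr2*, 12 were higher, 5 were lower and 8 did not pass edgeR's test, and the median of the list was 0.31 against 0.090 for all genes. Over all genes, 6.76% were called higher and 2.88% lower in this contrast. Among transcription factors, *Tbx22*, whose human counterpart is mutated in X-linked cleft palate, rose by 0.94 (SE 0.13, adjusted p = 4.5e-10). *Foxf2*, a hedgehog-dependent forkhead gene of the shelf, rose by 0.86 (SE 0.073) and *Pax9*, a paired-box gene needed for palate growth, by 0.74 (SE 0.071). *Meox2* (0.59), *Shox2* (0.57), *Sim2* (0.42) and the cofactor gene *Mn1* (0.41) also rose. Among ligands, *Bmp4* (0.79, SE 0.084), *Wnt5a* (0.45), *Bmp7* (0.41) and *Bmp3* (0.38) rose, and *Fgf10* (0.44, SE 0.19, adjusted p = 0.12) was not called. The receptor gene *Pdgfra* (0.31) rose.

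The 5 lower genes were *Mef2c* (−0.79, SE 0.064), *Sox6* (−0.73, SE 0.086), *Msx1* (−0.69, SE 0.11) and the semaphorin genes *Sema3d* (−0.38) and *Sema3a* (−0.37). *Mef2c* and *Sox6* encode transcription factors of bone and cartilage as well as of other tissues, and the semaphorins are guidance ligands. *Msx1* and *Pdgfra* are markers of the mesenchymal gate itself. *Msx1* was lower with *Osr2* only in control 1, at 30.7 against 117 CPM, and was at 19.4 against 16.6 CPM in control 2 and 21.9 against 19.9 CPM in the mutant. *Gli1* (−0.0066) and *Ptch1* (0.16), the readouts of hedgehog signalling, *Foxf1* (0.19), *Eya1* (0.16), *Bmp5* (0.13) and *Sema3e* (−0.49) did not pass. With TMM factors 10 were higher and 5 lower. DESeq2 called 5 higher and 2 lower, and gave some members no adjusted p. No called gene changed sign under either.

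In the mutant against control, 2 genes of this list were higher, 1 was lower and 22 did not pass, with a median of −0.15 against −0.13 for all genes. Over all genes, 0.423% were called higher and 1.02% lower. *Sox6* was at 26.3 and 35.9 CPM in the controls and 117 CPM in the mutant (1.91, SE 0.33, edgeR adjusted p = 4.2e-06). *Eya1*, a transcriptional coactivator, was at 10.97 and 9.33 CPM in the controls and 24.1 CPM in the mutant (1.25, SE 0.36, edgeR adjusted p = 0.042), a call lost with DESeq2 (1.37, adjusted p = 0.38). *Mn1* was at 315, 274 and 109 CPM (−1.44, SE 0.37, edgeR adjusted p = 0.011), a call lost with TMM factors (−1.32, adjusted p = 0.11). *Sox6* was thus lower in cells with *Osr2* and higher in the mutant. *Mn1* was higher in cells with *Osr2* and lower in the mutant. The *Sox6* call with *Osr2* was lost with DESeq2 (−1.04, adjusted p = 0.083). With and without *Osr2*, *Sox6* was at 17.7 and 46.3, 26.1 and 69.3 and, in the mutant, 111.3 and 122.6 CPM. Most other genes called with *Osr2* also had opposite signs in these contrasts. They were *Bmp4*, *Pax9*, *Shox2*, *Meox2*, *Tbx22*, *Foxf2*, *Bmp7*, *Wnt5a*, *Pdgfra*, *Mef2c* and *Sema3d*. The rest, *Msx1*, *Sim2*, *Bmp3* and *Sema3a*, had the same sign. *Eya1* was above 0 in both contrasts but was called only in the mutant. The medians of all genes, 0.090 with *Osr2* and −0.13 in the mutant, had opposite signs as well. Whether the contrasts are related was not tested. *Bmp4*, at 77.1, 85.1 and 49.6 CPM (−0.71, SE 0.35, edgeR adjusted p = 0.68), did not pass, nor did *Pax9* at 106, 188 and 108 CPM (−0.43, SE 0.35, adjusted p = 1.0).

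**Figure D5:**
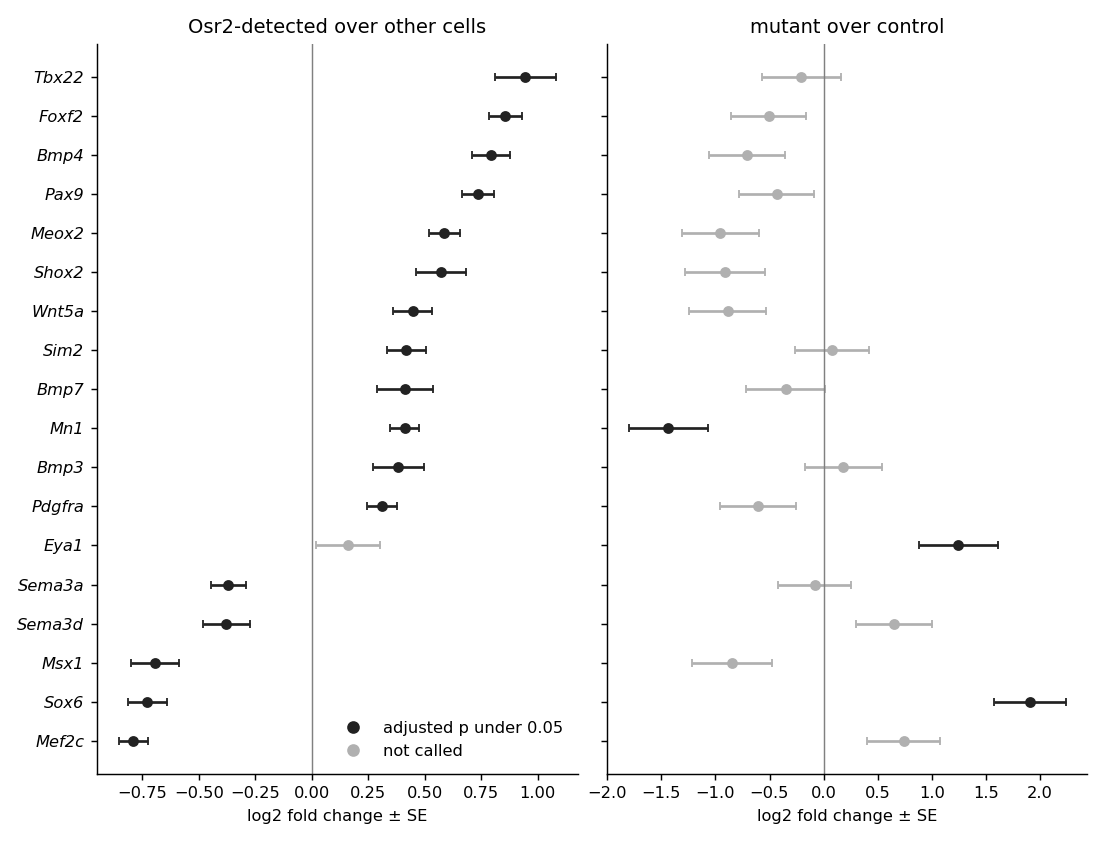
Log2 difference with 1 SE for the palatal shelf genes called in either comparison of palatal mesenchymal cells, between cells with and without an *Osr2* UMI (left) and between mutant and control (right). Dark points passed an adjusted p of 0.05. On the left 12 were higher and 5 lower, and on the right *Sox6* (1.91), *Eya1* (1.25) and *Mn1* (−1.44) passed.

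A list of 12 genes known as targets of TGF-β signalling was followed in the same way. Between mutant and control none passed (0 of 12 by edgeR with library totals, by edgeR with TMM factors and by DESeq2, each with 1 at an unadjusted p under 0.05). That gene was *Tgfbi*, a matrix gene named for its induction by TGF-β, at 46.6 and 60.2 CPM in the controls and 26.8 CPM in the mutant (−0.99, SE 0.36, edgeR adjusted p = 0.22). The median of the list was −0.38 against −0.13 for all genes, of which 0.423% were called higher and 1.02% lower by edgeR. At these shares a list of 12 genes would seldom hold a call. In cells with *Osr2*, *Fn1* (0.48), *Pmepa1* (0.35), *Postn* (0.30) and *Ccn1* (0.19) were higher, *Col1a1* (−0.22) was lower and 7 did not pass. The median was 0.18 against 0.090 for all genes, of which 6.76% were called higher and 2.88% lower. With TMM factors *Ccn1* (0.13, edgeR adjusted p = 0.36) was not called. With DESeq2 *Fn1* alone was higher and *Col1a1* lower, and *Postn* (adjusted p = 0.083), *Pmepa1* (adjusted p = 0.22) and *Ccn1* (adjusted p = 0.52) were not called.

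The genes whose levels most resembled that of *Osr2* were sought over 40 sums, each a gate in a library, by Pearson's r of log2(CPM + 1) among 8877 genes. The sums share libraries, and the mesenchymal gates share cells, so r is a description. The nearest gene was *Lox* (r = 0.92), a matrix cross-linking oxidase, followed by *Gm26771* (0.92), the sulfatase gene *Sulf1* (0.89), *Meis2*, *Zfp503*, *Map3k7*, *Bmp4*, *Cdo1*, *B3gnt9* and *Sfrp2* (0.87). *Osr1* ranked 22 at 0.85. *Tgfbr1* had an r of 0.29 with *Osr2*. For *Osr1* the nearest were *Bmp4* (0.89), *Dcn* (0.89), the gene of the matrix proteoglycan decorin, and *Nfatc4* (0.88), followed by *B3gnt9*, *Hic1*, *Dio3*, *Sertad3*, *Ccdc3*, *Adam33* and *Gdf10* (0.86). *Hic1* is a marker of the perimysial gate, and *Bmp4* and *B3gnt9* were in both lists.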

How the data were processed

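The deposited files were Cell Ranger matrices of raw UMI counts per gene and cell, 1 for each of 3 libraries. Per the labels, alignment and counting used Cell Ranger 4.0.0, while the submitters' processing notes name Cell Ranger 3.1.0 and mm10. The joined and integrated data of the study were not used. Positions are from GENCODE on GRCm38.

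The cell filter asked for at least 500 genes and a mitochondrial share of UMIs no higher than 10%. A cell took another type at 3 markers of that list and of no other list, and counted as palatal mesenchymal at 2 of 6 markers and under 3 of any other list. Except for mural and cartilage cells, other types also had to hold under 3 mesenchymal markers. Cells that met several lists (169, 215 and 620) were left out as possible doublets, and no doublet caller was run. Mesenchymal gates took 2 markers of a list. A cell with 1 mesenchymal marker and no other type stayed ungated (197, 651 and 1483 cells).

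UMIs were summed over the cells of a gate in each library, and genes with at least 10 UMIs were tested with edgeR 4.0.16 (glmQLFTest, library totals as the scale, Benjamini-Hochberg over all genes, threshold 0.05), with library as a block between gates. DESeq2 1.42.0 and TMM factors were alternatives, with other gates, filters, depths and left-out libraries. The fit of mutant against control was tested on simulated data of 16063 genes, where 93% of 200 genes given a log2 difference of 2 were recovered and 6 other genes were called. All simulated libraries, the mutant included, had the same spread. Recovery of a smaller difference, such as that of *Osr2* (−1.47), was not simulated. R 4.3.3, Python 3.11.15 and scipy 1.17.1 were used.

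Named genes were *Osr1*, *Osr2* and *Tgfbr1*, the 10 genes of highest r with *Osr2* and with *Osr1*, the 10 largest rises and falls with *Osr2* detection, and the 2 gene lists. The members, lists, gates and tests were chosen with earlier results of these data known. No column of the files was left unmapped. Some items that the rule names are not reported here.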

Additional observations from a re-analysis of the deposited data

Results flagged for a closer look

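*Osr1* in the midline gate was the result picked out here, because its effect differed between genotypes by a test of the difference itself: the log2 ratio of the gate to other mesenchymal cells was higher in the mutant than in the controls by 0.71 (SE 0.16, edgeR adjusted p = 0.010). This was 1 of 10 such differences tested, all added after the levels had been seen. It was 0.61 with TMM factors (adjusted p = 0.085), 0.62 with DESeq2 (adjusted p = 1.0) and 0.51 with at least 3 mesenchymal markers (adjusted p = 0.76). Without 1 of the controls it lay between 0.51 and 0.92, with no test. Over the alternatives with a test its adjusted p ran from 0.0047 to 1.0. The groups had 2 and 1 libraries, too few to look for a library far from the others.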

How the results depend on the processing

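The 34 results were recomputed under 17 settings, which gave 359 values. Of these, 288 kept their direction and side of the threshold, 34 lost a call, 4 gained one, 18 moved and 15 changed sign. *Osr2* kept its higher level in mesenchymal over epithelial, myogenic, endothelial and myeloid cells wherever a setting left both types, and its lower level in the osteogenic gate in direction.

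With TMM factors, *Osr2* in the mutant was −1.35 (adjusted p = 0.095), genes called fell from 232 to 104, *Osr2* in the perimysial gate was −0.094 and in the progenitor gate −0.30 (adjusted p = 0.036), the *Osr1* midline difference was 0.61, *Tgfbr1* in cells with *Osr2* 0.25 and its difference between genotypes −0.089. With DESeq2, genes called were 46 between genotypes and 285 between cells with and without *Osr2* (1549 by edgeR). *Osr2* in the perimysial gate was −0.098, *Osr1* in dividing cells −0.22 and its midline difference 0.62. With *Osr2* detection *Osr1* was 0.24 and *Tgfbr1* 0.24, the latter differing between genotypes by −0.064. With no filter on low counts, *Osr1* in dividing cells was −0.17 (adjusted p = 0.053).

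With at least 3 mesenchymal markers, *Osr2* in the mutant was −1.47 (adjusted p = 0.17) with 7 genes called, *Osr1* was 0.072 in the midline, 0.080 in the progenitor and −0.20 in the dividing gate, and its midline difference was 0.51. *Tgfbr1* with *Osr2* was 0.28, with 855 genes called, and differed between genotypes by −0.11. With at least 1, *Osr2* in the mutant was −1.41 with 3 genes called, *Osr2* in the perimysial gate −0.045, *Osr1* in the tendon gate −0.39 (adjusted p = 0.041) and with *Osr2* 0.20, and *Tgfbr1* differed by −0.033. Without the deepest cells of each library (0.8% per 1000 barcodes), *Osr2* in the tendon gate was −0.27, *Osr1* in dividing cells −0.15, *Tgfbr1* with *Osr2* 0.25 and its difference −0.12. With 1 marker for a gate, *Osr1* was 0.33 in the midline gate (adjusted p = 0.011) and −0.43 in the tendon gate. In mesenchymal cells between the quartiles of depth *Tgfbr1* with *Osr2* was 0.38 (adjusted p = 0.061) with 486 genes called. Outside the osteogenic gate, chosen after seeing the data, *Osr2* in the mutant was −1.40 and 116 genes were called. In each case the cause was not tested. The gate without *Msx1* and the wider cell filter changed no call.

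Leaving out 1 library gave, for *Osr2*, −0.15 to 0.24 in the perimysial gate and −0.36 to −0.21 in the tendon gate. *Osr1* ranged from −0.32 to 0.15 in the midline gate, from −0.19 to −0.14 in dividing cells and from 0.23 to 0.38 with *Osr2*. *Tgfbr1* with *Osr2* ranged from 0.31 to 0.32, and the genes called from 535 without the mutant to 1370 without control 2 (930 without control 1).

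No paired analysis was possible because the mutant has 1 library, so control and mutant share fewer than 2 replicate numbers. Within libraries the block paired the gates. With no replicate block, *Osr2* was −0.035 in the perimysial, 0.59 in the midline, −1.46 in the osteogenic (adjusted p = 0.11) and −0.36 in the tendon gate. *Osr1* was 0.96 in the perimysial gate (adjusted p = 0.57), −0.17 in dividing cells, 0.69 for the midline difference and 0.33 with *Osr2*, and *Tgfbr1* 0.32. Without the block edgeR called 0 of 16061 genes with *Osr2* (442 at an unadjusted p under 0.05).

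Shares moved with depth, and cells below each depth were left out. The mutant minus the mean of the controls was −2.38 percentage points for *Osr1* at 2000 UMIs, −8.46 at 4000 and −9.04 unthinned, and −2.80, −4.12 and −6.67 for *Tgfbr1*. The log2 odds ratio of *Osr1* with *Osr2* was 0.29 at 2000 UMIs and 0.81 unthinned, and that of *Tgfbr1* 0.13, 0.33 at 4000 and 0.72 unthinned.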
